A study of Mus musculus with 114 samples.

Results

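The genes described here carry iron into, through and out of cells: Trf, Tfrc, Slc11a2, Slc11a1, Fth1, Ftl1, Slc40a1, Cp and Hmox1. They were chosen by symbol, and all 9 were found among the 29132 genes with values. The RNA came from adipocytes of the perigonadal white fat of male C57BL/6J mice, which carried no engineered allele named in the labels. They had been put at 6 weeks of age on chow (CD) or on high fat food (HFD) and were taken after 8, 20 and 34 weeks on it. Each group held 6 mice, except for 8 CD mice at 34 weeks, and the 114 labelled samples are 3 technical replicates of each of the 38 mice, merged by the authors into 1 value per mouse. Adipocytes were the cells that floated after collagenase digestion, so that they were separated by buoyancy and not by a surface marker. Values are given as CPM, that is, the reads on a gene per 1000000 reads on all listed genes of the mouse.

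Transferrin (Trf) carries ferric iron in plasma and enters cells through the transferrin receptor (Tfrc), after which Slc11a2 (DMT1) moves the reduced iron out of the endosome. Slc11a1 (NRAMP1) is the related transporter of the phagosome in macrophages. Iron that is not used is stored in a shell made of ferritin heavy chains (Fth1), which oxidise iron, and light chains (Ftl1), which help to mineralise it. Ferroportin (Slc40a1) is the exporter of iron, the ferroxidase ceruloplasmin (Cp) oxidises the exported iron for loading onto transferrin, and heme oxygenase 1 (Hmox1) frees iron from heme. White adipocytes are known to take up iron by these routes, and macrophages of fat store and recycle it.

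Several of these messages carry an iron-responsive element (IRE), a hairpin that iron regulatory proteins bind when iron is scarce. Bound at the start of the message, as in ferritin and ferroportin, the proteins block translation, and bound near its end, as in Tfrc, they protect the message from decay. Read counts report the message only, so ferritin and ferroportin protein may move without them. The elements were searched in the untranslated regions (UTRs) of GENCODE M21 on GRCm38. The pattern was a C bulge, 5 base pairs in the upper stem, G-T pairs included, and a loop of CAGTG followed by A, C or T. Flanking bases were added to print a window of 29 bases, and their pairing was not checked. The matches are printed with the 6 loop bases in capitals, 5′ to 3′ on the strand of the gene. A match or its absence does not by itself show which members share this control. In the 5′ UTR lay 1 match in each of 3 members.
Fth1, chr19:9982732-9982760, plus strand: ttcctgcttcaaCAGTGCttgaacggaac
Ftl1, chr7:45459779-45459807, minus strand: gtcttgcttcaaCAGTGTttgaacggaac
Slc40a1, chr1:45925465-45925493, minus strand: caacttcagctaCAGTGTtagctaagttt
In the 3′ UTR of Tfrc on the plus strand of chromosome 16 lay 4 matches, at separate places of the same message.
Tfrc, chr16:32631219-32631247: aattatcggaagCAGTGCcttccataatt
Tfrc, chr16:32631598-32631626: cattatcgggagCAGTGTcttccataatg
Tfrc, chr16:32631663-32631691: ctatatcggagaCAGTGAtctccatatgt
Tfrc, chr16:32631710-32631738: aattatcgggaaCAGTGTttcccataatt
Of 21924 protein coding genes, each scanned in 1 transcript, 17 (0.0775%) had a match in a 5′ UTR and 85 (0.388%) in a 3′ UTR. The members were scanned in all their coding transcripts, and 4 of the 9 had a match in either, so these shares are not strictly comparable. No match in the other 5 members says only that this strict pattern was not found in their annotated UTRs, and not that they lack an element.

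All 9 genes passed the filter on low values, a mean log2(CPM + 1) above 2 over the 38 mice, which left 10343 genes for the tests. The libraries held 9275711 to 15480388 reads on genes, and at 8 weeks every HFD library was deeper than every CD library. The 10 adipocyte markers summed to between 16722 and 68717 CPM in each mouse, and T and B cell markers to at most 6.07 CPM. The median adipocyte marker sum was 55431 CPM in CD and 39521 CPM in HFD mice at 8 weeks. At 20 weeks it was 58625 and 27988 CPM, and at 34 weeks 45026 and 26080 CPM. Marker counts here are of calls by the rule given below, and a marker not called was not shown to be equal. Of the adipocyte markers 2, 7 and 9 of 10 were called lower in HFD mice at 8, 20 and 34 weeks, and 1, 1 and 0 higher. Of all genes tested 15.1%, 18.7% and 15.7% were called lower and 29.8%, 38.3% and 27.5% higher. The part of the adipocyte markers in the results was not tested. Of 6 endothelial markers 6, 5 and 5 were called higher, and of 7 markers of progenitors and fibroblasts 6, 7 and 4. Markers of macrophages were present in every mouse, with 14 of 14 above 0. Of the 14, 10, 12 and 14 were called higher in HFD mice at 8, 20 and 34 weeks. Their summed level ran from 369 to 1857 CPM in CD and from 1122 to 3952 CPM in HFD mice at 8 weeks. At 20 weeks the ranges were 943 to 3726 and 5371 to 11419 CPM, and at 34 weeks 1108 to 13324 and 6195 to 17879 CPM. In such bulk samples fewer cells of a type and less RNA per cell cannot be told apart. A further fit also held the mean of these 14 markers in each mouse, here called the marker fit. Its values are given beside the differences of the 9 genes whose call it changed. It was not applied to ratios.

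Most of the iron handling genes differed between the diets, in different directions along the route of iron. Cp and Trf, whose products load iron onto the carrier and bear it, were lower in HFD mice at all 3 times. Slc11a1 was higher at all 3 times, Ftl1 at 20 and 34 weeks and Slc40a1 at 8 and 20 weeks. Slc11a2 was lower at 8 and 20 weeks and higher at 34 weeks, and Hmox1 was lower at 8 weeks. Tfrc was not called at any time. Differences are of log2(CPM + 1), tested with limma and called at a Benjamini-Hochberg adjusted p under 0.05 over all 10343 genes. At 8 weeks 6 of the 9 genes were called, 2 higher and 4 lower, where 44.9% of all genes tested were called, 29.8% higher and 15.1% lower. At 20 weeks it was 7, with 4 higher and 3 lower, against 57.0% of all genes, 38.3% higher and 18.7% lower. At 34 weeks it was 5, with 3 higher and 2 lower, against 43.2% of all genes, 27.5% higher and 15.7% lower. Against such shares the counts do not set the 9 apart, and what follows is about the single genes. In the marker fit 3, 3 and 2 of the 9 were called at 8, 20 and 34 weeks, beside 3589, 1723 and 744 of the 10343 genes. Cp alone was called there at all 3 times, and Tfrc was called at 34 weeks.

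**Figure D1:**
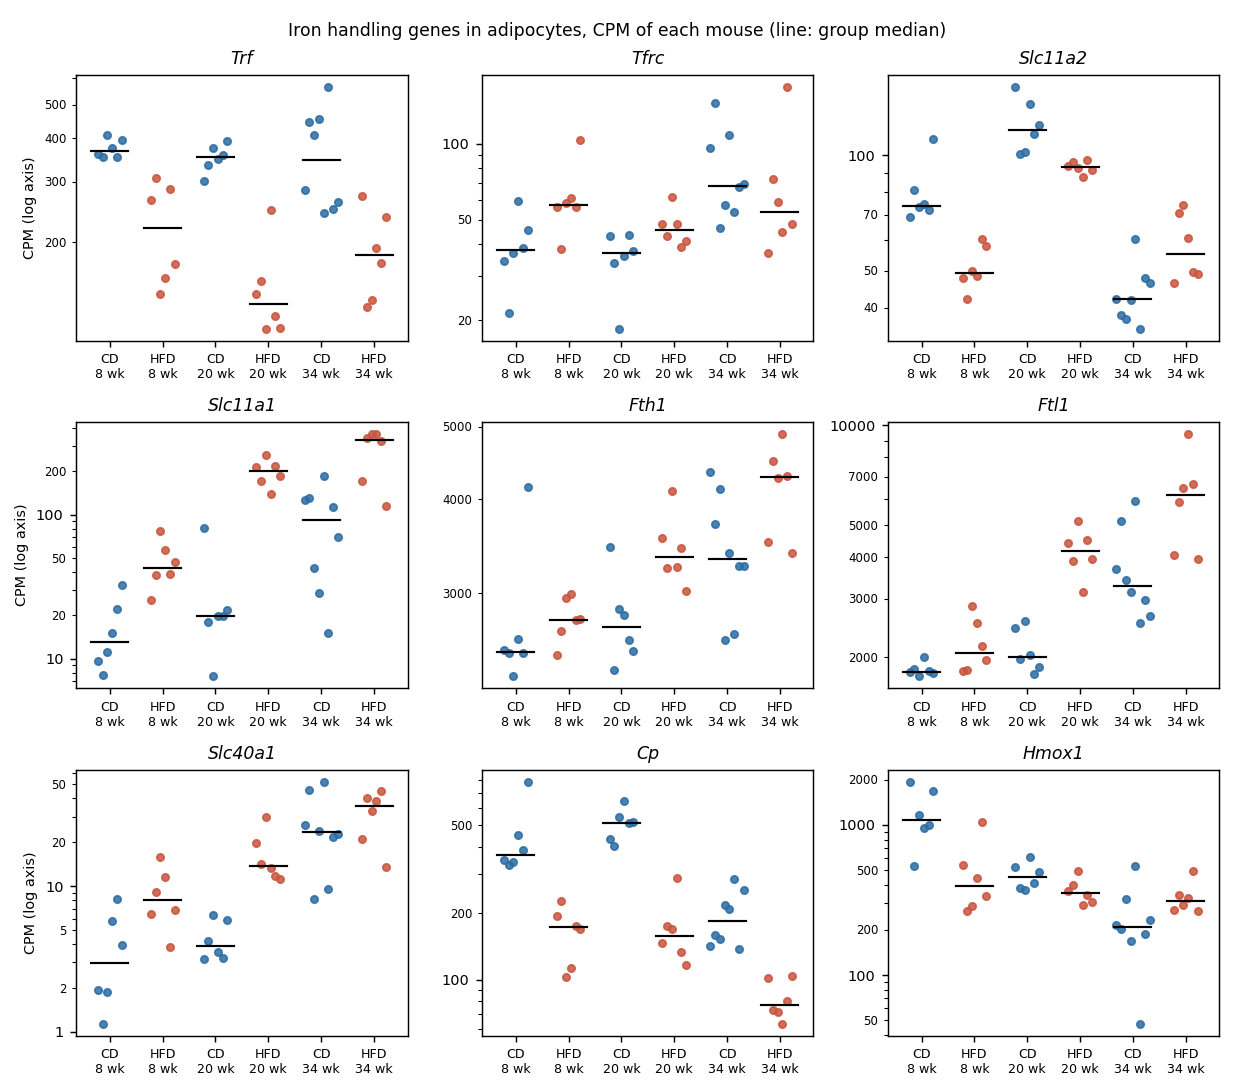
CPM of each iron handling gene in each mouse, on a log axis, with 1 panel per gene. Blue points are CD mice, red points HFD mice and the black line is the median of the group. The blue and red points of Trf, Slc11a2 and Cp lie apart at 8 and 20 weeks, and those of Slc11a1, Ftl1 and Slc40a1 at 20 weeks.

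The diets did not overlap at 8 weeks in Trf, Slc11a2 and Cp, all lower with HFD, where 22.8% of all genes tested were without overlap and 7.14% lower without overlap. At 20 weeks the diets lay apart in these 3 genes and, with HFD on top, in Slc11a1, Ftl1 and Slc40a1, against 37.2% of all genes, 11.1% lower and 26.1% higher. At 34 weeks Cp alone among the 9 was without overlap, against 2.46% of all genes and 0.986% lower.

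Trf (Entrez 22041, chromosome 9, 103208876 to 103230286, minus strand) is made mostly by the liver, and other tissues make it at lower levels. CD mice had 354, 367 and 408 CPM as the lowest, median and highest level of 6 mice at 8 weeks and 302, 354 and 392 CPM at 20 weeks. HFD mice reached 142, 220 and 308 CPM at 8 weeks and 113, 132 and 248 CPM at 20 weeks. All HFD mice thus lay below all CD mice at both times, with log2 differences of -0.82 (standard error 0.21, adjusted p = 0.00276 by limma) and -1.29 (standard error 0.21, adjusted p = 6.54e-06). At 34 weeks the 8 CD mice spread from 244 to 565 CPM with a median of 346, and the HFD mice from 130 to 273 CPM with a median of 184. Their ranges overlapped, and the difference was -0.91 (standard error 0.20, adjusted p = 0.000637). In the marker fit the 3 differences were -0.42, -0.60 and -0.49, none of them called (adjusted p = 0.0960, 0.0843 and 0.126).

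Tfrc (Entrez 22042, chromosome 16, 32608896 to 32632794, plus strand), the receptor whose message carries the 4 matches printed above, varied widely among mice. At 8 weeks CD mice had 21.3, 37.8 and 59.2 CPM as lowest, median and highest, and HFD mice 38.3, 57.4 and 103 CPM. The groups overlapped, and the log2 difference of 0.65 (standard error 0.29) missed the threshold with an adjusted p of 0.0637 by limma. The marker fit gave 0.13 (adjusted p = 0.743). Without the markers it passed with each time fitted separately (adjusted p = 0.0353), without CD mouse 4 (0.0337), without HFD mouse 2 (0.0317) and without HFD mouse 5 of 34 weeks (0.0323). At 20 and 34 weeks the differences were 0.42 and -0.27 (adjusted p = 0.210 and 0.430), and in the marker fit -0.50 and -0.84 (adjusted p = 0.304 and 0.0448). The diet difference at 34 weeks lay below that at 8 weeks by -0.92 (adjusted p = 0.0754), and this change was called in the marker fit (0.0200) and without CD mouse 4 (0.0466), HFD mouse 2 (0.0461) or HFD mouse 5 of 34 weeks (0.0102). HFD mouse 5 of 34 weeks had 169 CPM, while the other 5 mice of its group had 36.9 to 72.7 CPM. Relative to Fth1 reads of the same mouse, Tfrc differed between the diets by 0.63, 0.12 and -0.56 on the log2 scale at 8, 20 and 34 weeks (exact permutation test, adjusted p = 0.0887, 0.795 and 0.180). The first passed without CD mouse 4 (adjusted p = 0.0390) and the last without HFD mouse 5 (0.0233).

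Slc11a2 (Entrez 18174, chromosome 15, 100387898 to 100424209, minus strand) was lower in HFD mice at 8 and 20 weeks and higher at 34 weeks. At 8 weeks its lowest, median and highest levels were 69.1, 73.9 and 110.4 CPM in CD and 42.0, 49.3 and 60.3 CPM in HFD mice. At 20 weeks both diets stood higher, at 100.5, 116 and 151 CPM in CD and at 87.6, 92.9 and 97.1 CPM in HFD mice. In both cases every HFD mouse lay below every CD mouse, by -0.63 (standard error 0.13, adjusted p = 0.000242) and -0.35 (standard error 0.13, adjusted p = 0.0175) on the log2 scale by limma. At 34 weeks both diets stood lower again and the order had turned, with 35.3, 42.0 and 60.5 CPM in CD and 46.4, 55.1 and 74.0 CPM in HFD mice. These groups overlapped, and the difference was 0.40 (standard error 0.12, adjusted p = 0.00681). The diet difference at 34 weeks exceeded that at 20 weeks by 0.76 (standard error 0.17, adjusted p = 0.00629) and that at 8 weeks by 1.03 (standard error 0.17, adjusted p = 8.17e-05). The test of this change between 34 and 8 weeks was passed by 28.8% of all genes, 13.0% toward higher, and that between 34 and 20 weeks by 10.5%, 4.22% toward higher. Both passed in all 45 other settings, the marker fit included. In that fit the diet differences were -0.88, -0.80 and 0.13 (adjusted p = 3.18e-06, 0.000370 and 0.533), so the rise at 34 weeks was lost there, and without CD mouse 1 of 20 weeks the fall at 20 weeks had an adjusted p of 0.0568.

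Slc11a1 (Entrez 18173, chromosome 1, 74375014 to 74386057, plus strand) had the largest diet difference of the 9 genes at each time. CD mice had 7.75, 13.1 and 32.3 CPM as lowest, median and highest at 8 weeks, 7.58, 19.8 and 81.2 CPM at 20 weeks and 15.2, 91.3 and 184 CPM at 34 weeks. HFD mice had 25.6, 42.7 and 76.9 CPM, 138, 200.1 and 259 CPM, and 114, 332 and 362 CPM. The groups were apart at 20 weeks, while CD mouse 1 stood far above the other 5 CD mice of that time, which had at most 21.8 CPM. On the log2 scale the rises were 1.55 (standard error 0.47, adjusted p = 0.00822), 3.11 (standard error 0.47, adjusted p = 1.73e-06) and 1.89 (standard error 0.44, adjusted p = 0.00106) by limma. Its level followed the macrophage markers, with a Pearson r of 0.99 over the 38 mice and of 0.96 for the deviations from the group means. In the marker fit the difference was 0.11, 0.57 and 0.31, and was called at 20 weeks only (adjusted p = 0.616, 0.0308 and 0.195).

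**Figure D2:**
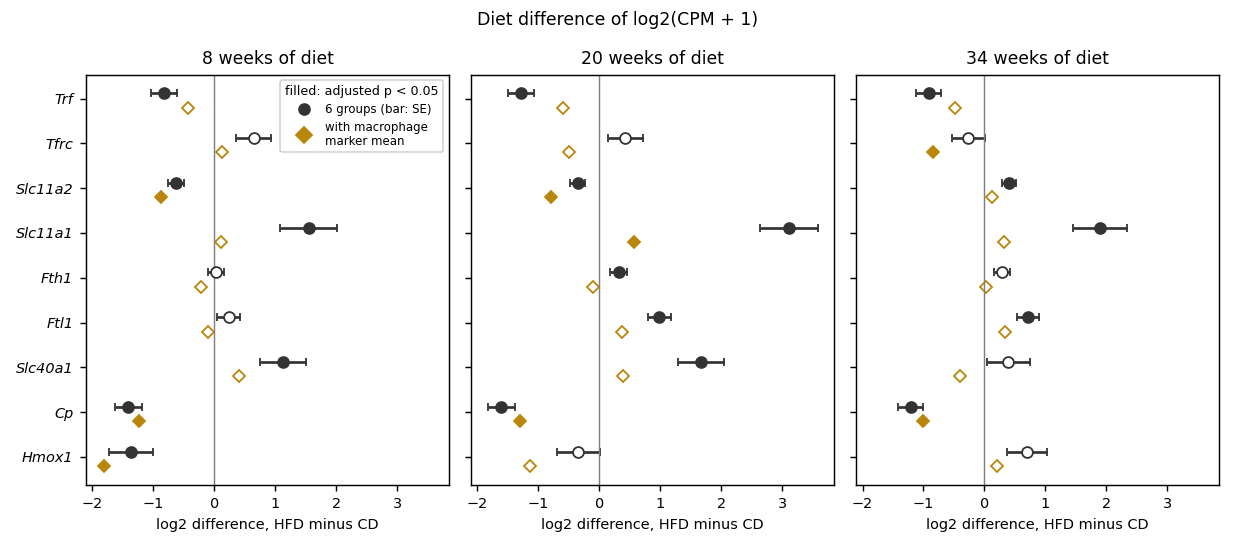
Difference between HFD and CD mice of log2(CPM + 1) at each time, with black points and standard errors for the fit of the 6 groups and gold diamonds for the marker fit. Filled symbols have an adjusted p under 0.05. The black points of Cp and Trf stay left of 0 at all 3 times, Slc11a2 crosses from -0.63 to 0.40, and at 20 weeks Slc11a1 is at 3.11 in black and at 0.57 in gold, both filled.

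Ftl1 (Entrez 14325, chromosome 7, 45457944 to 45459886, minus strand) rose with HFD while Fth1 (Entrez 14319, chromosome 19, 9980600 to 9985111, plus strand) moved less. Ftl1 lay at 1757, 1809 and 2006 CPM as lowest, median and highest in CD mice of 8 weeks and at 1818, 2064 and 2865 CPM in HFD mice, a difference of 0.24 on the log2 scale that was not called (adjusted p = 0.303 by limma). At 20 weeks CD mice reached 1780 to 2579 CPM (median 2008) and HFD mice 3140 to 5158 CPM (median 4194), with no overlap. At 34 weeks CD mice reached 2546 to 5935 CPM (median 3285) and HFD mice 3956 to 9405 CPM (median 6189), with overlap. The differences were 0.98 (standard error 0.19, adjusted p = 4.76e-05) and 0.72 (standard error 0.18, adjusted p = 0.00176). In the marker fit they were 0.37 and 0.34 and were not called (adjusted p = 0.237 and 0.239).

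Fth1 had median levels of 2506 CPM in CD and 2766 CPM in HFD mice at 8 weeks, 2701 and 3352 CPM at 20 weeks and 3326 and 4279 CPM at 34 weeks. The diets overlapped at each time. On the log2 scale the differences were 0.03, 0.32 and 0.29 (adjusted p = 0.866, 0.0426 and 0.0621 by limma). The call at 20 weeks did not last: it was lost in 6 of 8 other settings, for example with TMM factors (0.12, adjusted p = 0.432) or size factors (0.15, adjusted p = 0.331), and turned to -0.10 in the marker fit (adjusted p = 0.689). It was also lost when any of 8 mice was left out, namely CD mice 2 to 6 and HFD mice 1, 3 and 5 of 20 weeks, at adjusted p of up to 0.110. The value at 34 weeks was 0.03 in the marker fit (adjusted p = 0.934), and without the markers it was called when any of 5 mice was left out, namely CD mouse 6 of 8 weeks, CD mice 1 and 3 or HFD mice 1 and 6 of 34 weeks (adjusted p = 0.0286 to 0.0394).

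The ratio of both chains within a mouse does not depend on the scaling of the library. The log2 ratio of Fth1 over Ftl1 reads was 0.56 ± 0.32 (SD, n = 6) in CD and 0.35 ± 0.19 in HFD mice at 8 weeks. At 20 weeks it was 0.39 ± 0.16 and -0.27 ± 0.17, without overlap, and at 34 weeks -0.07 ± 0.40 (n = 8) and -0.50 ± 0.28. The shift toward the light chain at 20 weeks, -0.66, had an exact two-sided permutation p of 0.00216, the smallest that the 924 splits allow, and an adjusted p of 0.00974 over 9 such ratio tests. The shifts of -0.21 and -0.43 at 8 and 34 weeks missed the threshold (adjusted p = 0.284 and 0.0887 by the exact permutation test), and without CD mouse 5 that at 34 weeks passed it (-0.53, adjusted p = 0.0315). The genome holds close copies of ferritin genes, of which GENCODE M21 lists Ftl1-ps1, Ftl1-ps2, Ftl2-ps, Fth-ps2 and Fth-ps3. Only Fth-ps2 was analysed here, with at most 4 reads in any mouse, and how reads that align to several copies were counted is not given in the sources used here, so the levels of Fth1 and Ftl1 are uncertain by that share.

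Slc40a1 (Entrez 53945, chromosome 1, 45908070 to 45926532, minus strand), the exporter, had few reads: 14 to 95 per CD mouse and 52 to 246 per HFD mouse at 8 weeks. CD mice had 1.14, 2.95 and 8.17 CPM as lowest, median and highest at 8 weeks and 3.15, 3.87 and 6.33 CPM at 20 weeks. HFD mice had 3.84, 8.01 and 15.9 CPM and 11.2, 13.7 and 29.8 CPM, overlapping at 8 weeks and apart at 20 weeks. The log2 rises were 1.13 (standard error 0.38, adjusted p = 0.0160) and 1.67 (standard error 0.38, adjusted p = 0.000367) by limma. At 34 weeks CD mice had risen to 8.23, 23.5 and 52.1 CPM and HFD mice to 13.5, 35.6 and 45.2 CPM, a difference of 0.39 that was not called (adjusted p = 0.382). The rise at 8 weeks was lost without CD mouse 2 (adjusted p = 0.0526) or HFD mouse 3 (0.0545), and in the marker fit no time was called (0.40, 0.39 and -0.40 on the log2 scale, adjusted p = 0.380, 0.562 and 0.520). Relative to Fth1 reads of the same mouse, Slc40a1 was higher in HFD mice by 1.57 on the log2 scale at 20 weeks (exact permutation p = 0.00216, adjusted p = 0.00974) and by 1.39 at 8 weeks (adjusted p = 0.0649 by the same test). The latter passed without CD mouse 4 (1.58, adjusted p = 0.0390) or CD mouse 5 (1.70, adjusted p = 0.0260).

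Cp (Entrez 12870, chromosome 3, 19956933 to 20009750, plus strand) was lower in HFD mice at all 3 times in every setting tried, and no other member kept its calls at all 3 times. At 8 weeks CD mice had 331, 368 and 789 CPM as lowest, median and highest and HFD mice 103, 173 and 226 CPM. At 20 weeks they had 404, 516 and 646 CPM against 117, 158 and 290 CPM, and at 34 weeks 137, 184 and 286 CPM against 63.3, 76.7 and 103 CPM. Every HFD mouse lay below every CD mouse at each time. The differences were -1.41 (standard error 0.22, adjusted p = 1.28e-05), -1.61 (standard error 0.22, adjusted p = 4.84e-07) and -1.21 (standard error 0.21, adjusted p = 6.45e-05) on the log2 scale by limma. In the marker fit they were -1.23, -1.29 and -1.01 (adjusted p = 0.000332, 0.00341 and 0.00835). The 3 diet differences were not shown to differ from each other (adjusted p = 0.684, 0.399 and 0.658 for the interaction terms). Exons of Cp overlap those of Hps3 on the opposite strand, reads on both genes at once were left out by the authors' counting, and whether it used the strand of the libraries is not stated. Hps3 had 13.9 to 32.3 CPM in these mice.

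Hmox1 (Entrez 15368, chromosome 8, 75093618 to 75100593, plus strand) fell with HFD at 8 weeks, when its level was highest in CD mice. CD mice of 8 weeks had 530.1, 1080 and 1943 CPM as lowest, median and highest, and HFD mice 268, 390.1 and 1040.2 CPM. These groups overlapped, with HFD mouse 5 at the level of CD mice, and the log2 difference was -1.36 (standard error 0.35, adjusted p = 0.00256 by limma). It stayed called in the marker fit, at -1.81 (adjusted p = 0.000439). At 20 weeks the medians were 451 CPM in CD and 352 CPM in HFD mice (-0.34, adjusted p = 0.418, and in the marker fit -1.14, adjusted p = 0.0765). At 34 weeks they were 208 and 311 CPM (0.69, adjusted p = 0.0870), a difference that was 0.20 in the marker fit (adjusted p = 0.793) and passed without CD mouse 5 (0.89, adjusted p = 0.0186). The diet difference at 34 weeks exceeded that at 8 weeks by 2.06 (standard error 0.48, adjusted p = 0.00194), and this change was called in all 45 other settings. Against 20 weeks the excess was 1.04 (adjusted p = 0.159), which was called in the marker fit at 1.34 (adjusted p = 0.0493). Erythroid markers, which mark blood as a source of heme, summed to 2.08 to 41.5 CPM in CD and 14.8 to 131 CPM in HFD mice at 8 weeks, and their part in the result was not tested.

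Among CD mice, most of these genes differed between 20 and 34 weeks. Age, time on the diet and collection cannot be told apart here, and the median macrophage marker sum was 656, 1454 and 4584 CPM at 8, 20 and 34 weeks. From 8 to 20 weeks, 2 of the 9 genes changed in CD mice, against 3.58% of all genes (1.70% higher and 1.88% lower): Slc11a2 rose by 0.59 (standard error 0.13, adjusted p = 0.00540) and Hmox1 fell by 1.28 on the log2 scale (standard error 0.35, adjusted p = 0.0316). The fall of Hmox1 was lost when any of 7 mice was left out (CD mice 1, 3 and 6 of 8 weeks and 2, 3, 5 and 6 of 20 weeks), at adjusted p of 0.0532 to 0.104. From 20 to 34 weeks 8 of the 9 changed, 5 higher and 3 lower, against 62.5% of all genes, 41.1% higher and 21.4% lower. Slc40a1, Slc11a1, Tfrc, Ftl1 and Fth1 rose by 2.15, 1.62, 1.11, 0.76 and 0.29 (adjusted p = 4.92e-06, 0.00194, 0.000639, 0.000425 and 0.0414 by limma). Slc11a2, Cp and Hmox1 fell by 1.44, 1.42 and 1.18 (adjusted p = 1.85e-11, 7.68e-07 and 0.00250). Trf stood at 352 ± 31.6 CPM (SD, n = 6) and 364 ± 121 CPM (n = 8), a difference of -0.01 on the log2 scale (adjusted p = 0.956).

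In the marker fit, the age change of Slc40a1, Tfrc, Ftl1, Slc11a2, Cp and Hmox1 between 20 and 34 weeks stayed called, and that of Slc11a1 and Fth1 did not (adjusted p = 0.172 and 0.671). Between these times 6085 of the 10343 genes were called in that fit. The call of Fth1 was lost in 14 of the 45 other settings, 8 of them with a mouse left out, namely CD mice 2, 4, 5 or 6 of 20 weeks and 1, 2, 3 or 5 of 34 weeks (adjusted p = 0.0512 to 0.101). From 8 to 34 weeks the same 8 genes were called in CD mice, again 5 higher and 3 lower, against 64.7% of all genes, 40.1% higher and 24.6% lower, with the largest changes in Slc40a1 (2.47, adjusted p = 6.36e-07) and Hmox1 (-2.47, adjusted p = 2.30e-07). Of the 8, 4 were not called in the marker fit: Slc11a1 (2.15 against -0.02), Tfrc (0.98 against 0.19), Ftl1 (0.95 against 0.42) and Fth1 (0.31 against -0.05), with adjusted p of 0.915, 0.610, 0.0624 and 0.794 there. From 8 to 34 weeks 5374 of the 10343 genes were called in that fit. The call of Fth1 was lost in 11 of 45 other settings, among them TMM factors (0.156), size factors (0.155), edgeR (0.190), and leaving out CD mice 1, 2, 3 or 5 of 8 weeks or 1 or 3 of 34 weeks (0.0568 to 0.0757). Hmox1 went from a median of 1080 CPM at 8 weeks to 208 CPM at 34 weeks, and CD mouse 6 of 34 weeks was lowest at 47.5 CPM. These comparisons share mice, so their changes are not independent of each other.

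**Figure D3:**
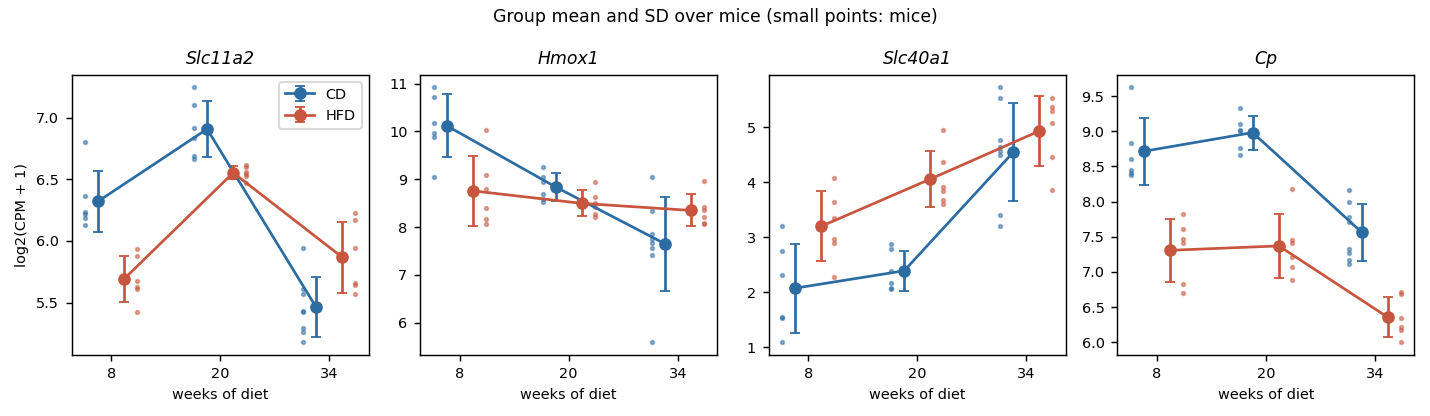
Mean and SD of log2(CPM + 1) over mice for Slc11a2, Hmox1, Slc40a1 and Cp after 8, 20 and 34 weeks, with CD in blue, HFD in red and small points for single mice. The times are drawn at even spacing. Slc11a2 is highest at 20 weeks in both diets and the order of the diets is turned at 34 weeks, while Cp stays lower in HFD mice throughout.

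In HFD mice, 4 of the 9 genes were called from 8 to 20 weeks, against 36.5% of all genes (21.2% higher and 15.3% lower), with Slc11a1 (2.10, adjusted p = 0.00106), Ftl1 (0.93, adjusted p = 0.000444) and Slc11a2 (0.86, adjusted p = 1.68e-05) higher and Trf lower (-0.57, adjusted p = 0.0371). With the markers Slc11a1 was at 0.21 (adjusted p = 0.4996), Ftl1 at 0.48 (0.147) and Trf at -0.05 (0.931), none called, and Slc11a2 stayed called at 0.53 (0.0103). Tfrc, at -0.36 without the markers (adjusted p = 0.331 by limma), was called lower with them at -1.04 (0.0338). Of the 10343 genes, 434 were called with the markers from 8 to 20 weeks. The fall of Trf was lost when any of 7 HFD mice was left out, namely mice 1, 2 and 5 of 8 weeks and 1, 3, 5 and 6 of 20 weeks (adjusted p of 0.0563 to 0.104). From 20 to 34 weeks it was 3 of 9 against 30.2% (17.8% higher and 12.5% lower): Cp fell by 1.01 (adjusted p = 0.00119), Slc11a2 fell by 0.69 (adjusted p = 0.000252) and Ftl1 rose by 0.49 (adjusted p = 0.0456, lost in 15 of 45 other settings, at adjusted p of up to 0.167 without HFD mouse 4 of 34 weeks). Trf, at 0.36 from 20 to 34 weeks (adjusted p = 0.203 by limma), was called higher in the marker fit at 0.48 (0.0347). Over the whole time from 8 to 34 weeks 5 of 9 were called, against 52.5% of all genes (31.7% higher and 20.8% lower). Slc40a1 (1.73), Ftl1 (1.42), Fth1 (0.57) and Slc11a1, whose median went from 42.7 to 332 CPM, were higher (adjusted p = 0.000314, 8.13e-07, 0.000674 and 6.05e-05) and Cp lower (-0.95, adjusted p = 0.000579). Of these, Ftl1 alone was called in the marker fit too, where the others had adjusted p of 0.0919 to 0.466. Of the 10343 genes, 1888 were called there. None of the 9 genes changed its diet difference from 8 to 20 weeks in the test of that change, which 4.49% of all genes passed, although Slc11a1 and Hmox1 had unadjusted p of 0.0244 and 0.0492 and Ftl1 of 0.00861. Slc11a1 did pass without CD mouse 1 of 20 weeks (adjusted p = 0.0383), and Ftl1 without CD mouse 5 of 34 weeks (0.0495).

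The members fell on different sides of the macrophage markers across mice. Over the 38 mice, which share libraries with the markers, the Pearson r with the marker mean was 0.99 for Slc11a1, 0.88 for Ftl1, 0.83 for Slc40a1, 0.80 for Fth1 and 0.53 for Tfrc. It was -0.72 for Trf, -0.74 for Cp, -0.34 for Hmox1 and -0.10 for Slc11a2. For deviations from the group means, which leave out diet and age, r was 0.64 for Slc11a2, 0.40 for Hmox1, -0.58 for Trf and -0.26 for Cp. It was 0.96 for Slc11a1, 0.62 for Fth1, 0.60 for Ftl1, 0.60 for Slc40a1 and 0.57 for Tfrc. For Slc11a2 and Hmox1, r was thus above 0 within groups and below 0 over all mice.

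**Figure D4:**
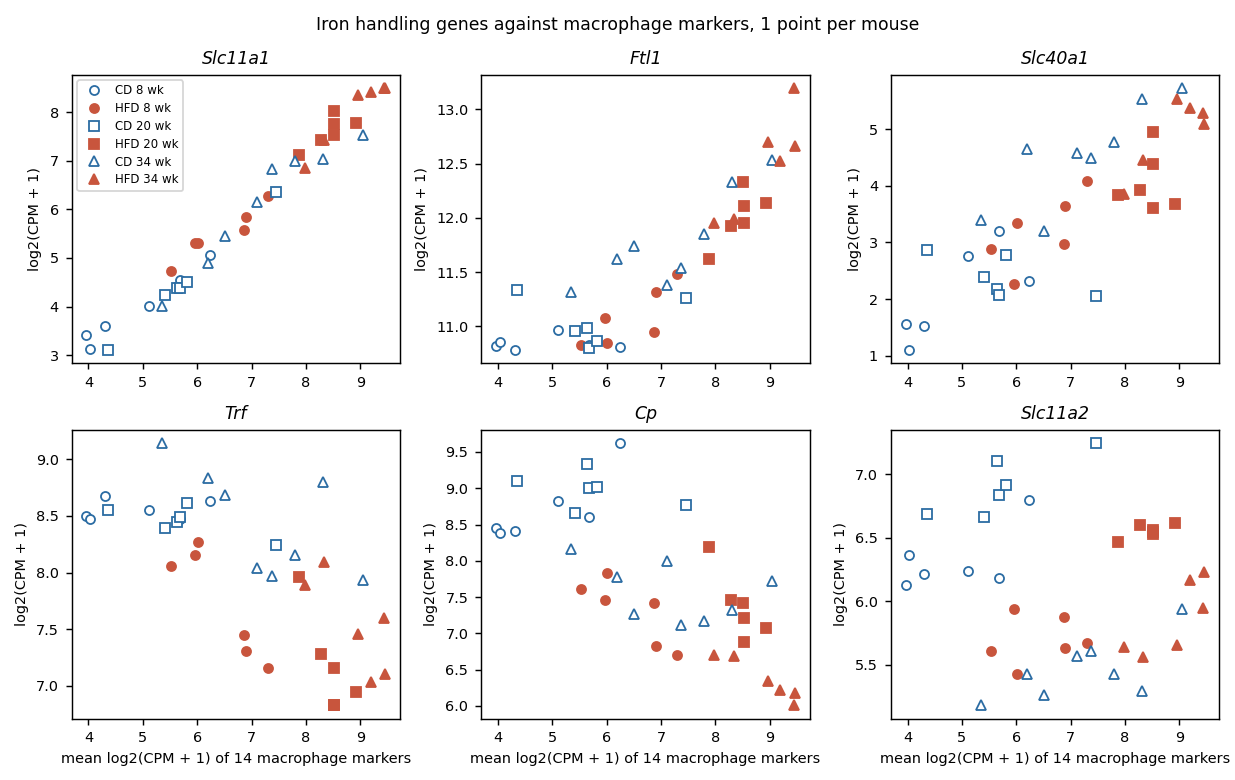
Level of 6 iron handling genes, as log2(CPM + 1), against the mean log2(CPM + 1) of 14 macrophage markers, with 1 point per mouse, open blue symbols for CD and filled red symbols for HFD. Slc11a1 lies close to a straight line (r of 0.99), Trf and Cp run downward, and Slc11a2 shows no common trend (r of -0.10).

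The genes most like each member in pattern, by Pearson r of log2(CPM + 1) over the 38 mice among 10073 genes compared, differed between members. For Slc11a1 they were Itgb2 (0.99), an integrin chain of leukocytes, and Cd84 (0.99), a receptor of immune cells. Ftl1 ran with Atp6ap1 (0.97), an accessory subunit of the proton pump of lysosomes, and with Brms1 (0.97). Slc40a1 was most like Gnpda1 and Lyl1 (0.91 each), and Fth1 like H2-T23 (0.87) and the Fc receptor Fcgr4 (0.86). Tfrc had Arg1, the arginase of the urea cycle and of some macrophages, at 0.76, and Abcg3 at 0.75. Cp was most like the growth factor receptor Met and Fam13a (0.94 each), and Trf like Fahd2a and Derl1 (0.94 each). Slc11a2 had Zfp217 (0.95) and the transcription factor subunit Nfkb1 (0.94), and Hmox1 had Srxn1 (0.84), which repairs oxidised peroxiredoxins, and Usp38 (0.82). For deviations from the group means r was lower for every gene named here, from 0.57 for Usp38 with Hmox1 to 0.98 for Itgb2 with Slc11a1. It was 0.73 and 0.64 for Met and Fam13a with Cp, and 0.90 and 0.87 for Fahd2a and Derl1 with Trf. With Slc11a2 it was 0.68 for Zfp217 and 0.84 for Nfkb1. These are descriptions over mice that share diet, age and library, and carry no test.

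Other genes of iron and heme handling were taken from lists by role. Of 69 such genes 63 had values and 52 passed the filter. At 8 weeks 23 were called, 12 higher and 11 lower, at 20 weeks 29, with 9 higher and 20 lower, and at 34 weeks 26, with 11 higher and 15 lower. These counts stand beside 44.9%, 57.0% and 43.2% of all genes called, and as totals they do not set the further genes apart. In direction they differed at 20 and 34 weeks, with more of the further genes lower than higher and more of all genes higher than lower. This was not tested. The same shares of all genes hold for each list below, with 29.8%, 38.3% and 27.5% of all genes higher and 15.1%, 18.7% and 15.7% lower. Their median log2 difference was 0.08, -0.14 and -0.13, where that of all genes tested was 0.11, 0.14 and 0.07. With the marker fit the count was 16 at 20 weeks and 5 at 34 weeks, and with each time fitted separately 14 at 34 weeks.

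**Figure D5:**
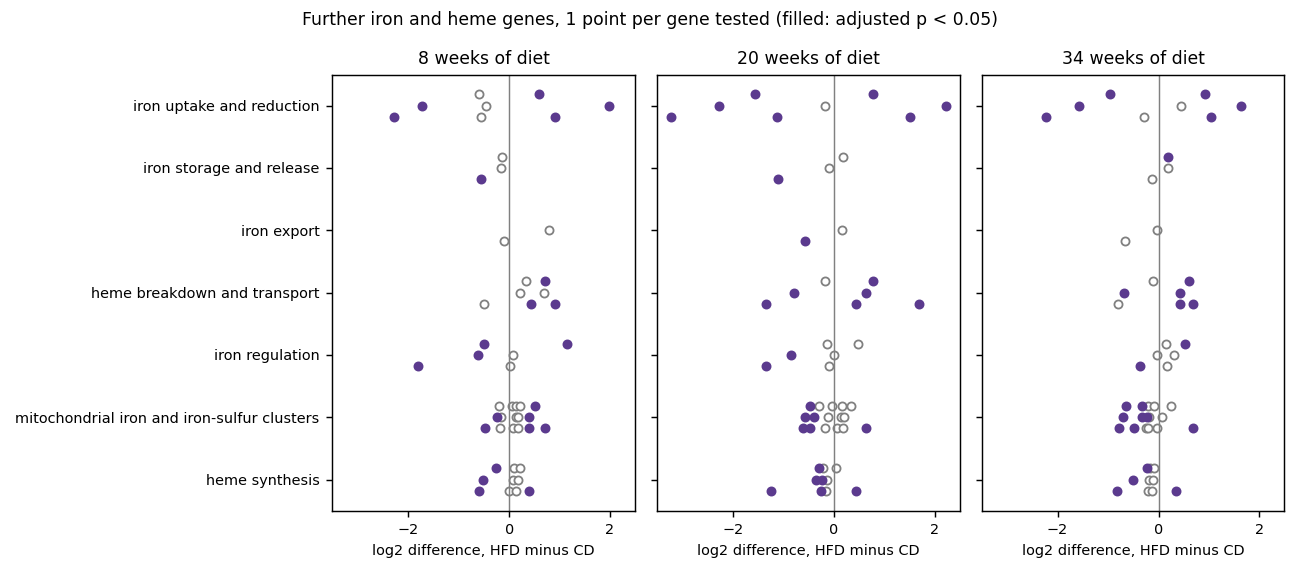
Log2 difference between HFD and CD mice for the 52 further iron and heme genes tested, by role, with 1 point per gene and filled points for an adjusted p under 0.05. Uptake and reduction holds the widest spread, from -3.23 for Steap2 to 2.22 for Tfr2 at 20 weeks, while storage, export and heme synthesis stay mostly within 1 unit of 0.

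Among the 8 genes of uptake and reduction, 5, 7 and 6 were called at 8, 20 and 34 weeks, in both directions, against 44.9%, 57.0% and 43.2% of all genes. Steap2, a metalloreductase, fell at all 3 times, from 32.1 ± 10.8 to 6.81 ± 4.86 CPM at 8 weeks (log2 -2.28, adjusted p = 2.81e-06) and from 28.4 ± 9.52 to 2.07 ± 0.80 CPM at 20 weeks (-3.23, adjusted p = 5.30e-09), with n = 6 mice each and limma's test. Steap3, the endosomal ferrireductase of the transferrin cycle, rose at all 3 times (adjusted p = 0.000823, 5.56e-07 and 0.000145), at 20 weeks from 21.9 ± 7.99 to 61.9 ± 12.1 CPM, and in the marker fit by 0.46, 0.70 and 0.55 on the log2 scale (adjusted p = 0.0387, 0.0217 and 0.0422). Tfr2, the second transferrin receptor, was at 9.91 ± 8.21 CPM in HFD and 1.21 ± 0.56 CPM in CD mice at 8 weeks (1.98, adjusted p = 0.00535) and at 43.3 ± 16.4 and 21.5 ± 23.4 CPM at 34 weeks (1.63, adjusted p = 0.0129), but was not called at 34 weeks by edgeR. At 20 weeks its difference was 2.22 (adjusted p = 0.00119), and in the marker fit Tfr2 was called at no time (adjusted p = 0.0776, 0.304 and 0.355). Slc39a14, a transporter of iron not bound to transferrin, fell by 1.72 and 1.57 at 8 and 20 weeks (adjusted p = 8.24e-06 and 6.79e-06) and was not called at 34 weeks (0.44, adjusted p = 0.145). Lcn2, which binds the siderophores of bacteria, fell by 2.28 on the log2 scale (standard error 0.82, adjusted p = 0.0182) to 11.1 ± 3.19 CPM at 20 weeks and from 101 ± 70.6 to 15.4 ± 9.24 CPM at 34 weeks (-2.24, adjusted p = 0.0187). Lcn2 in the marker fit was at -4.99 and -3.92 at 20 and 34 weeks (adjusted p = 0.000631 and 0.00122). With the mouse number as a block its call at 34 weeks was lost (adjusted p = 0.0643 by limma). Steap3 and Slc39a14 were picked after their values were seen.

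Of the 3 genes of storage and release, Ncoa4, the receptor that delivers ferritin to autophagy, fell from 156 ± 28.7 to 104 ± 7.02 CPM at 8 weeks and from 226 ± 68.4 to 101 ± 15.0 CPM at 20 weeks (log2 -0.56 and -1.11, adjusted p = 0.00646 and 1.33e-06 by limma). At 34 weeks its difference was -0.13 (adjusted p = 0.488), and Pcbp1, an iron chaperone, was higher by 0.19 (adjusted p = 0.0335), a call lost in 6 of 8 other settings and when any of 8 mice was left out. Of the 2 export genes tested, Heph, a ferroxidase related to Cp, fell from 204 ± 18.7 to 137 ± 17.5 CPM at 20 weeks (-0.58, adjusted p = 0.00203, and 0.902 in the marker fit), and no call was made at 8 or 34 weeks.

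The 7 genes of heme breakdown and transport held 3, 6 and 5 calls, 3, 4 and 4 of them upward, and more of all genes were called upward than downward too. Blvra, a biliverdin reductase and so the step after Hmox1, rose from 33.3 ± 2.11 to 65.9 ± 18.5 CPM at 8 weeks and from 28.4 ± 8.74 to 91.2 ± 6.80 CPM at 20 weeks (log2 0.91 and 1.69, adjusted p = 0.000399 and 4.33e-08 by limma), and both calls held in the marker fit. Slc48a1, a heme transporter of lysosomes, rose from 234 ± 27.9 to 388 ± 82.3 CPM at 8 weeks (0.71, adjusted p = 0.000179). Blvrb rose from 70.4 ± 21.1 to 111 ± 21.8 CPM at 34 weeks (0.67, adjusted p = 0.000584, and 0.134 in the marker fit). Downward went Cd163, the scavenger receptor for hemoglobin on macrophages, from 122 ± 53.1 to 46.8 ± 23.2 CPM at 20 weeks (-1.35, adjusted p = 0.0113), while the macrophage markers rose, and its difference in the marker fit was -2.68 (adjusted p = 0.00113). Hp, which binds free hemoglobin, went from 8645 ± 3507 to 5613 ± 2789 CPM at 34 weeks (-0.69, adjusted p = 0.0455, lost in 3 of 8 other settings and when any of 8 mice was left out).

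Among the 6 regulators tested, 4, 2 and 2 were called, against 44.9%, 57.0% and 43.2% of all genes. Bach1, the heme-sensing repressor of Hmox1, fell from 849 ± 70.7 to 267 ± 139 CPM at 8 weeks and from 1013 ± 199 to 408 ± 122 CPM at 20 weeks (log2 -1.81 and -1.34, adjusted p = 8.65e-05 and 0.000983 by limma). At 8 weeks, when Hmox1 fell too, both genes thus went the same way. Aco1, which without its iron-sulfur cluster is an iron regulatory protein, fell by 0.84 at 20 weeks (adjusted p = 4.86e-05, and 0.321 in the marker fit) and by 0.37 at 34 weeks (adjusted p = 0.0475, lost when any of 19 mice was left out), while the partner protein Ireb2 differed by 0.02, 0.00027 and 0.15 (adjusted p = 0.876, 0.998 and 0.196). Hfe, a partner of the transferrin receptors, rose from 86.8 ± 15.8 to 204 ± 75.1 CPM at 8 weeks (1.15, adjusted p = 6.88e-05). Nfe2l2, which drives antioxidant genes, was higher by 0.53 at 34 weeks (adjusted p = 0.0135, and 0.568 in the marker fit).

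The 16 mitochondrial and iron-sulfur cluster genes held 6, 6 and 8 calls, against 44.9%, 57.0% and 43.2% of all genes. At 8 weeks 4 of 6 were higher, with Isca2 (33.0 ± 2.88 to 54.5 ± 7.25 CPM, adjusted p = 1.56e-05 by limma) and the scaffold Iscu (120.4 ± 8.02 to 173 ± 13.3 CPM, adjusted p = 0.00221) among them. At 34 weeks 7 of 8 were lower, with Fdx1, an electron carrier of cluster assembly, from 43.7 ± 10.6 to 25.1 ± 7.27 CPM (adjusted p = 0.000877) and Bola3 from 67.0 ± 15.7 to 41.3 ± 12.4 CPM (adjusted p = 0.000265). At 20 weeks 5 of 6 were lower, such as Glrx5 (log2 -0.62, adjusted p = 0.00351). The calls named here for 20 and 34 weeks were lost in the marker fit, and those for 8 weeks were not.

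Of the 10 heme synthesis genes 4, 6 and 4 were called, 3, 5 and 3 of them lower, against 44.9%, 57.0% and 43.2% of all genes called and 15.1%, 18.7% and 15.7% lower. Alas1, the rate-limiting first enzyme outside red cells, fell from 495 ± 95.1 to 323 ± 52.2 CPM at 8 weeks (log2 -0.61, adjusted p = 0.000291 by limma). Alad, the second enzyme, fell by 0.53, 1.24 and 0.83 at 8, 20 and 34 weeks (adjusted p = 0.0336, 5.62e-06 and 0.000948, the first lost when any of 9 mice was left out), at 20 weeks from 78.5 ± 11.5 to 32.5 ± 3.00 CPM, and no call of Alad held in the marker fit (adjusted p = 0.732, 0.123 and 0.207). Uros fell by 0.51 at 34 weeks (adjusted p = 0.000773, and 0.0887 in the marker fit). Cpox went from 7.82 ± 1.01 to 10.95 ± 1.49 CPM at 20 weeks (0.44, adjusted p = 0.00333), a call lost with TMM factors, size factors and edgeR.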

How the data were processed

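CPM of 38 mice were deposited by the authors, who per their methods and the submitters' processing notes aligned stranded poly(A) libraries to mm10 with STAR (versions 2.5 and 2.5.2b are listed), counted reads that fell on the exons of 1 gene of GENCODE vM2 with featureCounts (Subread 1.5.1) and merged the technical replicates of a mouse. Genes without an Entrez identifier had been discarded. Each column sums to 1000000, and 100% of values were whole multiples of the value of 1 read within 0.1 reads, so these whole reads served for count tests. The methods name TMM factors for CPM, but none shows in these sums. The labels number the mice, which were taken as separate animals.

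Here log2(CPM + 1) of the 10343 genes with a mean above 2 was fitted with limma 3.58.1 (R 4.3.3, mean-variance trend, 6 groups together, 32 residual degrees of freedom, two-sided, Benjamini-Hochberg over all genes tested, threshold 0.05). Ratios were tested with an exact permutation test. The alternatives were a pseudocount of 0.5, no filter (21166 genes), TMM factors, median-of-ratios size factors, edgeR 4.0.16's quasi-likelihood test on whole reads, each time fitted separately, the mouse number as a block, the mean of 14 macrophage markers as a covariate, and each mouse left out. The members, the gene lists and the markers were chosen with earlier results of these data known. Further genes were named by rule, the largest called changes of each list and time, and 1 gene so named is not reported here. Pearson r of likeness has no test. The limma and edgeR fits without covariates were tested on simulated counts with the same dispersion for all genes. Adgre1, Flvcr1, Flvcr2, Meltf, Hjv and Erfe were not analysed here. Positions are RefSeq's on GRCm38.p6.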

Additional observations from a re-analysis of the deposited data

Results flagged for a closer look

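In 4 of the 54 sets of 1 gene and 1 group, a mouse lay far from the others of its group by Dixon's criterion, which chance gives in about 1 of 20 sets. CD mouse 6 of 8 weeks was the highest of its group in 3 of them, with 4150 CPM of Fth1, 789 CPM of Cp and 110.4 CPM of Slc11a2. The other 5 mice of that group had at most 2603, 453 and 81.2 CPM. CD mouse 3 of 20 weeks was the lowest in Tfrc, at 18.5 CPM, where the next mouse had 33.8 CPM. CD mouse 6 of 8 weeks also had the highest macrophage marker sum of its group, at 1857 CPM. Without this mouse Fth1 was called between the diets at 34 weeks (adjusted p = 0.0359) and between 20 and 8 weeks in HFD mice (0.0419), and Hmox1 was not called between 20 and 8 weeks in CD mice (0.0697), all by limma. The diet differences of Cp and Slc11a2 at 8 weeks stayed called without it.

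The diet difference itself changed between times in 2 genes. That of Slc11a2 was greater at 34 than at 20 weeks by 0.76 on the log2 scale (adjusted p = 0.00629 by limma) and greater than at 8 weeks by 1.03 (adjusted p = 8.17e-05). That of Hmox1 was greater at 34 than at 8 weeks by 2.06 (adjusted p = 0.00194).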

How the results depend on the processing

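Of 1242 log2 differences of the 9 genes between the diets under the other settings, 1204 kept their direction and their side of the threshold. In 1026 of the 1242, 1 mouse was left out, often of another time, which leaves the difference itself as it was. The count of 1204 is thus no measure of stability. The marker fit moved most, with 10 of the 18 called differences lost and that of Fth1 at 20 weeks turned to -0.10; the cause was not tested. In it the number of the 9 genes called was 3, 3 and 2 at 8, 20 and 34 weeks, 4 between 34 and 8 weeks in CD mice, 2 (20 against 8 weeks) and 1 (34 against 8 weeks) in HFD mice, and 2 for the diet difference at 34 against 20 weeks. For the comparisons after the 3 diet times, 5374, 434, 1888 and 1354 of the 10343 genes were called in it, in the same order. Of the further iron genes 16 and 5, and of all genes 1723 and 744, were called in it at 20 and 34 weeks. With each time fitted separately, 14 further iron genes and 2457 of all genes were called at 34 weeks. Without a filter 1 of the 9 genes was called between 20 and 8 weeks in CD mice, where more genes were tested.

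With each mouse left out in turn, that number was 1 to 2, and that for the diet difference at 20 against 8 weeks 0 to 1. The log2 ratio of Tfrc over Fth1 ranged from 0.47 to 0.78 at 8 weeks and from -0.83 to -0.42 at 34 weeks, that of Slc40a1 over Fth1 from 1.13 to 1.70 at 8 weeks, and that of Fth1 over Ftl1 from -0.53 to -0.34 at 34 weeks.

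The labels do not say whether the mouse numbers pair the mice. The correlations of the 18 pairs of same-numbered mice ran from -0.51 to 0.53, with 8 over 0.1, which does not decide it. With the mouse number as a replicate block, Fth1 at 20 weeks had an adjusted p of 0.0646, and the ratios at 20 weeks, -0.66 for Fth1 over Ftl1 and 1.57 for Slc40a1 over Fth1, had an adjusted p of 0.141. Both stood at 0.0312, the smallest exact p that 6 pairs allow, so this loss says nothing about their stability.

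TMM factors moved the median of all genes by -0.11 and -0.19 at 8 and 20 weeks and by -0.14 between 34 and 20 weeks in CD mice, so small changes such as those of Fth1 depend on the scaling. Of 1564 values of the further genes named, 1485 kept their call. Depth limits genes of few reads, such as Slc40a1 with as few as 14 reads in a mouse.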
